A study of Mus musculus with 6 samples.

Results

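*Lrch2*, *Lbh*, *Spats2* and *Gpr155* are 4 protein-coding genes whose RNA levels in clonal MIN6 β cells lay apart between *Snd1* KO and control clones, and they were chosen for that separation. They are 4 of the 53808 mouse genes listed in each library, and all 4 were among the 17823 that averaged 0.5 TPM or more over the 6 clones. TPM divides the reads of a gene by its length and sets the total of a library to 1000000. For the 4 genes, the length that fitted the deposited values was equal or close to the summed exons of all annotated transcripts. A gene with many transcripts can thus read low beside other genes. MIN6 is a mouse insulinoma line used as a β cell model. Both groups descend from MIN6 cells that express the nuclease Cas9, were infected with lentivirus carrying a gRNA and a puromycin resistance gene, and were selected with puromycin. The 3 control clones carry a gRNA to *intron* 2 of *Snd1*. The 3 *Snd1* KO clones carry a gRNA to *exon 2*, which was not the same gRNA in every KO clone. Differences between KO clones by gRNA were not tested. No drug, dose or time course was compared, and each clone grew from 1 cell and gave 1 library. A difference between groups is therefore a difference between sets of 3 clones of 1 parental line, and the spread given below is that between clones.

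SND1 is a protein with nuclease-like domains and a Tudor domain that takes part in transcription and RNA metabolism, and in the study it was examined as a partner of the β cell transcription factor PDX1. LRCH2 belongs to a family of proteins that combine leucine-rich repeats with a calponin homology domain, and LRCH proteins bind DOCK exchange factors, which switch on Rac and Cdc42 GTPases at the actin cytoskeleton. LBH is a small nuclear cofactor of transcription known from limb and heart development and as a target of Wnt signaling. SPATS2 is an RNA-binding protein best known from male germ cells. GPR155, also named LYCHOS, is a membrane protein of the lysosome that senses cholesterol and acts on the GATOR1 complex, an inhibitor of mTORC1.

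The genes lie on 4 different chromosomes, and none is on chromosome 6, where *Snd1* is. In GRCm38 with GENCODE M21, *Lrch2* (ENSMUSG00000031290) occupies X:147470375-147554081 on the minus strand with 6 annotated transcripts. *Lbh* (ENSMUSG00000024063) occupies 17:72918305-72941947 on the plus strand with 2 transcripts and is the shortest, at 23.6 kb. *Spats2* (ENSMUSG00000051934) occupies 15:99125916-99213215 on the plus strand with 7 transcripts. *Gpr155* (ENSMUSG00000041762) occupies 2:73341506-73386572 on the minus strand with 8 transcripts.

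The 250 bases before each RefSeq transcription start (GRCm38.p6) are shown because the 4 genes separate the same 6 clones and a reader may compare the sequences in front of them. Both strands were searched for 7 motifs, the GC box (GGGCGG), the TATA box (TATAAA), the CCAAT box (CCAAT), the CRE core (TGACGT), the E-box (CACGTG), a homeodomain core (TAATTA) and the NRF1 core (GCGCATGCG). Capitals mark every match, either as spelled or as its reverse complement. Each sequence is read 5′ to 3′ on the strand of its gene, from X:147554082-147554331, 17:72918055-72918304, 15:99126595-99126844 and 2:73386481-73386730 in the order printed.
*Lrch2*: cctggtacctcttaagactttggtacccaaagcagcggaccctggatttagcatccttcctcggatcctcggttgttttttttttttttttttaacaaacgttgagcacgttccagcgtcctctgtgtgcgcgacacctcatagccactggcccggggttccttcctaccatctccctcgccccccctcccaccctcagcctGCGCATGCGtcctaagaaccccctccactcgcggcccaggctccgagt
*Lbh*: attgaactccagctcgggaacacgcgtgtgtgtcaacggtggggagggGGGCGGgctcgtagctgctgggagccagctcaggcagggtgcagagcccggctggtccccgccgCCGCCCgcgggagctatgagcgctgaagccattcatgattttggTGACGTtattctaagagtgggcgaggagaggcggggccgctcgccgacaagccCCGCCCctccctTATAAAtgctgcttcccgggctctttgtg
*Spats2*: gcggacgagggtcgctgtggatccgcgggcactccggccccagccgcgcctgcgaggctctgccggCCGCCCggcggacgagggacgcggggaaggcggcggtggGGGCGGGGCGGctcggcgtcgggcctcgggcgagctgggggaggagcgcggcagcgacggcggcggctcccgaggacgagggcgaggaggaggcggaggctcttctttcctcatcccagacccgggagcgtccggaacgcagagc
*Gpr155*: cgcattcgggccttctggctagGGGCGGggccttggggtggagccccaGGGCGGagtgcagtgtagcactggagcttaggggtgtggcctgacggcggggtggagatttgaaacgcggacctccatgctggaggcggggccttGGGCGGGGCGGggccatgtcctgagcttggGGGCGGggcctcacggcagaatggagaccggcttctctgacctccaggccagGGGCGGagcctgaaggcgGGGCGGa

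No motif was found in all 4 windows. The *Lrch2* window held a single match, an NRF1 core that starts 48 bases before the transcription start (position -48), and 1.49% of 27025 RefSeq promoter windows of the same length held this motif. The *Lbh* window held a TATA box at -29, present in 13% of windows, a CRE core at -94, present in 6.56%, and GC boxes at -202, -138 and -41. *Spats2* had GC boxes at -184, -145 and -140, the last pair overlapping by 1 base, and no other match. *Gpr155* had 7 GC boxes between -228 and -7 and no other match. The GC box occurred in 32.9% of all windows, whereas 7 or more occurred in 0.437%. The CCAAT box, E-box and homeodomain core, found in 34.5%, 6.05% and 4.90% of all windows, had no match in these 4. GC content was 56.8% for *Lrch2*, 64.8% for *Lbh*, 70.4% for *Gpr155* and 78.4% for *Spats2*, compared with a median of 52% over all windows. The RefSeq start lies 929 bases inside the GENCODE gene body for *Spats2* and 92 bases inside it for *Gpr155*, so the outermost annotated start of *Spats2* was not covered, while that of *Gpr155* lies within its window. A match describes letters in this window and does not show that a factor binds there.

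The libraries held 25860454 to 33052085 reads on genes, recovered from the TPM steps. The paper states fewer reads per library than this, from paired-end sequencing. Whether both mates of a read pair were counted was not given in the sources used here and was not tested. If they were, the counting intervals below are too narrow, and a floor in reads stands for fewer fragments. *Snd1* was at 113, 119 and 112 TPM in control clones 1 to 3 and at 14.7, 57.1 and 19.9 TPM in *Snd1* KO clones 1 to 3, so that the KO mean was 26.7% of the control mean and KO clone 2 kept the most *Snd1* RNA. The paper chose the KO clones by immunoblot as deficient in SND1 protein and sequenced their *exon 2* indels. The RNA that remained is therefore no measure of remaining SND1 protein. Of 15 β cell markers 14 were at 5 TPM or more in every clone, the exception being *Ucn3*, and *Pdx1* ranged from 1634 to 2164 TPM. Of 20 markers of other pancreatic, endothelial, stromal and blood cells, 4 had a mean of 0.5 TPM or more and *Hhex*, *Cpa1*, *Prss1* and *Amy2b* were among those at 0 in every clone. The summed level of the other-cell list was 180 to 390 TPM in controls and 136 to 1192 TPM in KO clones, the highest being KO clone 1 with 1100 TPM of *Gcg*. The duct keratin *Krt7* was at 3.55 and 1.59 TPM in control clones 1 and 2, at 72.9 TPM in control clone 3 and at 87.2, 77.0 and 44.1 TPM in the KO clones. Control clone 3 stood apart from the other controls. Each control clone was held out in turn and placed between the mean of the other controls and the KO mean, on the log2(TPM + 1) scale, over the genes at least 2-fold apart between those means. Control clone 3 lay a median of 77.3% of the way to the KO mean over 1306 genes, compared with 8.77% over 878 genes for control clone 1 and 1.76% over 834 genes for control clone 2. For the 4 genes, the ratios and log2 differences are therefore also given without control clone 3.

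Across all 17823 genes, limma on log2(TPM + 1) called 1 gene (0.00561%), lower in KO, where a call required a Benjamini-Hochberg adjusted p-value below 0.05 together with 2-fold or more between groups. It was *Gm24966*, named after its values were seen. Before adjustment, p-values below 0.05 were found for 1419 genes (7.96%). *Snd1* itself was not called, with a log2 fold change of -2.11 (SE 0.45), so a gene without a call may still differ. None of the 4 genes was called, and since they were chosen from this contrast their differences are described without a test. The KO and control values did not overlap in 4 of the 4, which the choice fixed. Over all genes tested the values did not overlap in 13.7%, with 9.69% higher in every KO clone and 4.03% lower. With means also at least 2-fold apart, the shares were 2.74% higher and 0.915% lower. In bulk RNA, fewer cells that express a gene and less RNA per cell cannot be told apart.

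*Lrch2* was close to absent from the KO clones. It was at 12.3, 13.4 and 5.07 TPM in control clones 1 to 3, or 1448, 1502 and 516 reads. In the KO clones it was at 0.104, 0 and 0.00913 TPM, or 11, 0 and 1 reads. The counting interval (95%, exact Poisson) was 5.49 to 19.7 reads for KO clone 1 and 0.0253 to 5.57 for KO clone 3, and for the 0 in KO clone 2 its upper limit was 3.69 reads. The floor of detection used here, 3 reads in a library, corresponds to 0.0294 TPM in KO clone 2. The lowest control, clone 3, was thus 48.9 times the highest KO clone, KO clone 1, a distance of 2.46 on the log2(TPM + 1) scale. Without control clone 3 the lowest control was 119 times the highest KO clone. Without KO clone 1, both KO clones left are under the floor of 3 reads per library, and the lowest control was 173 times that floor in KO clone 2.

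The group means of *Lrch2* were 10.3 ± 4.53 TPM in controls and 0.0376 ± 0.0574 TPM in KO clones (SD, n = 3 clones each). The control mean was 273 times the KO mean, and 192 times when KO clones under 3 reads were set to 3 reads. The latter ratio was 241 without control clone 3 and 362 without KO clone 1, the KO clone with 11 reads. On the log2(TPM + 1) scale, which understates changes of low values, the KO mean minus the control mean was -3.34, and without control clone 3 it was -3.74. Control clone 3 was the low control, at 39.4% of the mean of the other controls, and stood 31.8% of the way from them to the KO mean on the log2(TPM + 1) scale. The spread between clones was therefore wide for this gene, with a pooled SD of 0.49 compared with a median of 0.27 over all genes tested. By mean level *Lrch2* was above 49.8% of the genes tested in controls and above 0.483% in KO clones.

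*Lbh* was lower in every KO clone but still well expressed. Control clones 1 to 3 were at 61.7, 54.9 and 49.9 TPM, or 1201, 1016 and 839 reads. KO clones 1 to 3 were at 22.2, 26.5 and 25.8 TPM, or 390, 448 and 468 reads. All 3 KO clones lay below all 3 controls, and the lowest control was 1.88 times the highest KO clone, or 2.07 times without control clone 3. The means were 55.5 ± 5.92 and 24.9 ± 2.30 TPM (SD, n = 3), so KO clones held 44.8% of the control level, or 42.6% without control clone 3. The KO mean minus the control mean of log2(TPM + 1) was -1.13, and -1.20 without control clone 3. The pooled SD of 0.14 was under the median of all genes, and control clone 3 stood 18.3% of the way from the other controls to the KO mean.

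*Spats2* was higher in every KO clone and was near the filter on low values in controls. It was at 0.469, 1.54 and 0.891 TPM in control clones 1 to 3, or 25, 78 and 41 reads, and the 25 reads have an interval of 16.2 to 36.9. It was at 7.15, 14.1 and 14.3 TPM in KO clones 1 to 3, or 343, 651 and 710 reads. KO clone 1 was the low one of the KO group, and it was still 4.64 times the highest control, which was control clone 2. This ratio of nearest values was 8.02 without control clone 2 and 9.13 without KO clone 1. The means were 0.968 ± 0.540 TPM in controls and 11.9 ± 4.08 TPM in KO clones (SD, n = 3), a ratio of 12.3, or 11.8 without control clone 3. The KO mean minus the control mean of log2(TPM + 1) was 2.69, and 2.68 without control clone 3, which here sat among the other controls at -1.17% of the way to the KO mean. The clones spread widely on a linear scale, with an SD of 55.9% of the mean in controls and 34.4% in KO clones, and the pooled SD on the log2(TPM + 1) scale was 0.46.

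*Gpr155* was a moderately expressed gene in controls and was higher in every KO clone. Control clones 1 to 3 were at 9.62, 9.12 and 10.8 TPM, or 1173, 1056 and 1137 reads. KO clones 1 to 3 were at 20.7, 26.5 and 24.1 TPM, or 2273, 2803 and 2737 reads. Control clones lay close together and all 3 KO clones lay above them, the lowest KO clone being 1.92 times the highest control, or 2.15 times without control clone 3. The means were 9.84 ± 0.859 and 23.8 ± 2.91 TPM (SD, n = 3), a ratio of 2.41, or 2.54 without control clone 3. The KO mean minus the control mean of log2(TPM + 1) was 1.19, and 1.25 without control clone 3, and the pooled SD was 0.15.

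**Figure D1:**
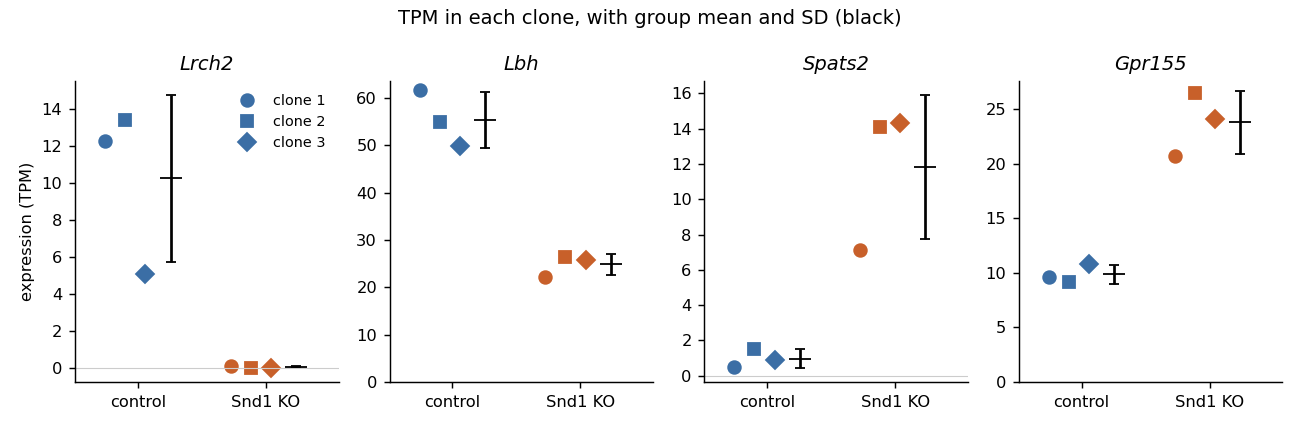
Expression of *Lrch2*, *Lbh*, *Spats2* and *Gpr155* in TPM (y axis, linear, 1 scale per gene) in each control (blue) and *Snd1* KO (orange) clone, with the group mean and SD in black (n = 3 clones). *Lrch2* sits between 5.07 and 13.4 TPM in controls and at or below 0.104 TPM in KO clones, and in all 4 panels the groups do not overlap.

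The 4 genes thus formed a pair with a large difference and wide spread, *Lrch2* and *Spats2*, and a pair just over 2-fold apart and narrow spread, *Lbh* and *Gpr155*. Within the KO group, *Gpr155* and *Lbh* stood in the same order of clones as the *Snd1* RNA that remained, lowest in clone 1 and highest in clone 2. *Lrch2* had 11 reads in KO clone 1, and the 1 and 0 reads in KO clones 3 and 2 are under the floor, so no order of those clones is read. *Spats2* was lowest in clone 1 but highest in clone 3. KO clone 2, with the most *Snd1* RNA, was the farthest of the 3 from the controls in *Gpr155* and the nearest to them in *Lbh*. With 3 clones in a group, no relation to *Snd1* was tested.

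**Figure D2:**
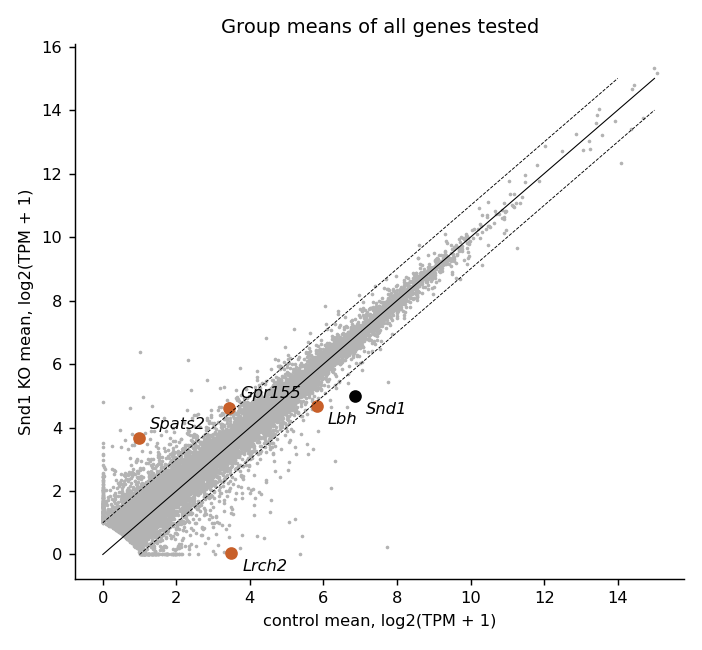
Log2 of the mean TPM plus 1, with the mean taken over the 3 control clones (x axis) or the 3 *Snd1* KO clones (y axis). The 17823 genes tested are in grey, with the 4 genes in orange and *Snd1* in black. The solid line marks equal means and the dashed lines a difference of 1, and *Lrch2* and *Spats2* lie farther from the solid line than *Lbh* and *Gpr155*.

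Relatives of the 4 genes were read from the same limma fit. Of 6 paralogues, 3 passed the filter and 0 were called, and 1 of the 3 had an unadjusted p-value under 0.05, compared with 7.96% of all genes. *Lrch1* was at 6.37, 5.56 and 6.50 TPM in control clones and at 7.72, 9.14 and 9.58 TPM in KO clones, without overlap, as in 13.7% of all genes (limma log2 fold change 0.46, SE 0.15, adjusted p = 0.585). Without control clone 3 its fold change was 0.49. *Lrch3* was at 12.5, 13.5 and 10.02 TPM in controls and 13.5, 10.6 and 12.7 TPM in KO clones, with overlap (0.03, limma adjusted p = 0.974), and its direction turned under 3 other settings and with either control clone 3 or KO clone 1 left out. *Lbhd1*, a relative of *Lbh*, had 7.07, 6.42 and 8.90 TPM in controls and 8.63, 9.83 and 7.98 TPM in KO clones, which overlapped (0.22, limma adjusted p = 0.756). *Lrch4*, *Lbhd2* and *Spats2l* were below the filter, *Lbhd2* being at 0 in every clone and *Spats2l* in every clone but control clone 1.

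To add family members on 1 scale, TPM was recomputed with each exonic base of a gene counted once. On this scale *Lrch2* made up 42.5, 43.8 and 26.3% of the summed LRCH family in control clones 1 to 3, and 0.561, 0 and 0.0485% in KO clones 1 to 3. The family sum was 52.5 ± 12.2 TPM in controls and 36 ± 2.73 TPM in KO clones (SD, n = 3). Control clone 3, at 38.7 TPM, lay close to the KO clones at 37.3, 32.9 and 37.8 TPM. *Lrch3* was at 24.5 ± 3.62 TPM in controls and 25.1 ± 3.13 TPM in KO clones. Its share was 44.1, 45.0 and 53.1% in control clones and 74.2, 65.9 and 69.0% in KO clones. In the LBH family the sum was 42.3 ± 3.17 TPM in controls and 23.2 ± 1.75 TPM in KO clones, with *Lbh* at 36.7 ± 3.74 and 16.5 ± 1.46 TPM and *Lbhd1* at 5.61 ± 0.985 and 6.65 ± 0.682 TPM. *Spats2* had no expressed relative, and on this scale it was at 1.36 ± 0.764 TPM in controls and 16.8 ± 5.72 TPM in KO clones. *Gpr155* was at 19.6 ± 1.77 and 47.5 ± 5.59 TPM.

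**Figure D3:**
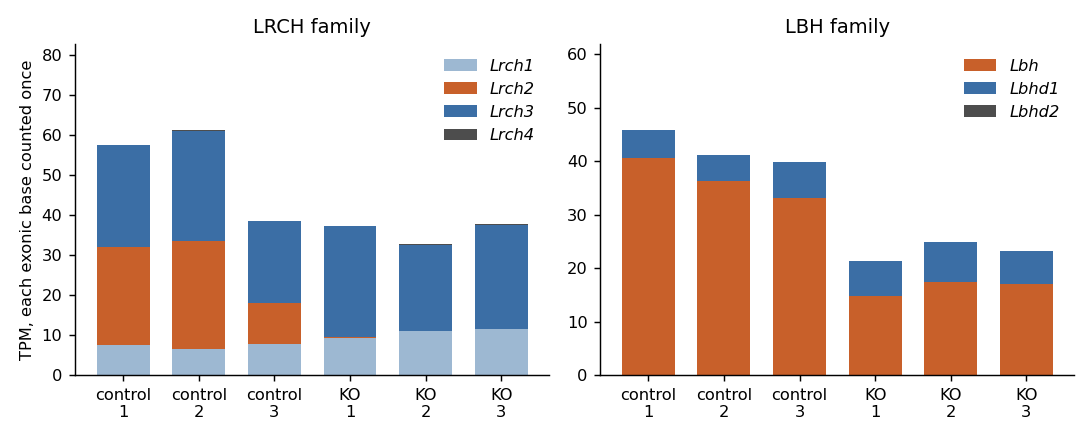
Stacked TPM of the LRCH family (left) and the LBH family (right) in each clone, with each exonic base counted once (y axis, TPM from 0). *Lrch2* (orange, left) is 26.3 to 43.8% of its family in controls and not visible in KO clones, and *Lbh* (orange, right) remains the larger part of its family in every clone.

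Genes of the pathways in which the 4 genes are known to act were also counted. LRCH proteins bind DOCK exchange factors, and of 32 DOCK, ELMO, small GTPase and effector genes 26 were tested. Of these 0 were called by limma, and 3 had an unadjusted p-value under 0.05 (11.5%, compared with 7.96% of all genes), all higher. The values were higher in every KO clone for 4 genes (15.4%, compared with 9.69% of all genes) and lower in every KO clone for 0 (4.03% of all genes). The median log2 fold change was 0.00046 compared with 0.04 over all genes. *Cdc42ep3*, which encodes an effector of the GTPase CDC42, was at 1.69, 0.841 and 0.205 TPM in controls and 5.91, 8.18 and 7.06 TPM in KO clones (2.14, SE 0.32, limma adjusted p = 0.308). Without control clone 3 this was 1.85, and with a pseudocount of 0.1 it was 3.15. *Rhoa*, the GTPase of stress fibers, was at 110, 105 and 188 TPM in controls and 233, 201 and 221 TPM in KO clones, with control clone 3 near the KO clones (0.75, limma adjusted p = 0.568). *Dock8*, an exchange factor for CDC42, was at 1.18, 0.730 and 0.414 TPM in controls and 1.19, 2.29 and 2.19 TPM in KO clones (0.70, limma adjusted p = 0.607), where control clone 1 and KO clone 1 nearly met, and its fold change with a pseudocount of 0.1 was 1.23.

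*Lbh* is known as a Wnt target, and of 71 Wnt ligands, receptors, inhibitors, intracellular components and targets 46 were tested. Again 0 were called by limma, 2 had an unadjusted p-value under 0.05 (4.35%, compared with 7.96% of all genes), and 2 were higher and 1 lower in every KO clone. The 3 made up 6.52%, compared with 13.7% of all genes. The median log2 fold change was 0.07. *Lrp5*, a Wnt co-receptor, was at 9.55, 9.70 and 9.06 TPM in controls and 20.1, 17.6 and 15.7 TPM in KO clones (0.84, SE 0.14, limma adjusted p = 0.324). Its controls spanned 9.06 to 9.70 TPM, and without control clone 3 the fold change was 0.82. *Rspo3*, a secreted enhancer of Wnt signaling, was at 1.19, 1.30 and 0.153 TPM in controls and 1.42, 3.35 and 4.45 TPM in KO clones (1.10, limma adjusted p = 0.605). Its fold change was 0.78 without control clone 3, 1.90 with a pseudocount of 0.1 and 2.01 with voom. *Tle1*, a corepressor, was at 7.02, 5.99 and 5.74 TPM in controls and 5.16, 5.08 and 4.76 TPM in KO clones (-0.27, limma adjusted p = 0.668).

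For *Gpr155*, 53 symbols of mTORC1, its nutrient sensing complexes and the lysosomal membrane were listed, which gave 52 genes, all tested. Here too 0 were called by limma and 1 had an unadjusted p-value under 0.05 (1.92%, compared with 7.96% of all genes). In every KO clone 3 were higher and 2 lower (9.62%, compared with 13.7% of all genes), and the median log2 fold change was -0.05. *Nprl2*, a subunit of the GATOR1 complex, was at 17.9, 18.8 and 29.9 TPM in controls and 30.9, 41.5 and 34.8 TPM in KO clones (0.69, SE 0.22, limma adjusted p = 0.575). Control clone 3 lay next to the KO clones, and without it the fold change was 0.92. *Deptor*, an inhibitor within mTOR complexes, was at 34.3, 41.9 and 38.9 TPM in controls and 43.7, 45.4 and 49.5 TPM in KO clones (0.26, limma adjusted p = 0.607). *Lamtor2*, of the Ragulator scaffold, differed by 0.12 (limma adjusted p = 0.742). *Rheb*, the GTPase that activates mTORC1, and *Tfe3*, a lysosomal transcription factor, differed by -0.11 and -0.15 (limma adjusted p = 0.766 and 0.796).

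**Figure D4:**
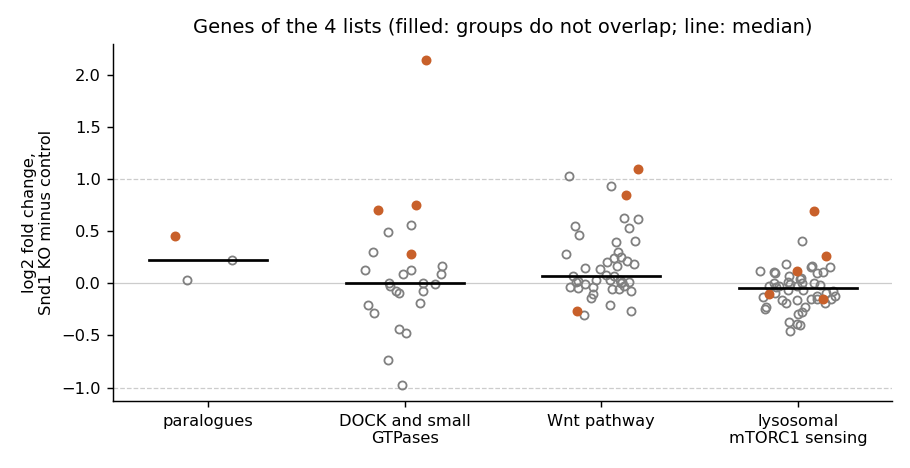
Log2 fold change on the log2(TPM + 1) scale, *Snd1* KO minus control (y axis), of every tested gene of the 4 lists (x axis), with filled points where the 3 KO and 3 control values do not overlap and a line at the list median. The medians lie between -0.05 and 0.22, and *Cdc42ep3* at 2.14 is the farthest point.

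The genes around each of the 4 were examined to 500 kb on either side, which gave 116 annotated genes, 49 of them tested. Of these 0 were called by limma, 6 had an unadjusted p-value under 0.05 (12.2%, compared with 7.96% of all genes), and the values did not overlap in 9 (18.4%, compared with 13.7%). Around *Spats2*, 35 of 63 genes were tested, and 6 (17.1%) were higher and 0 lower in every KO clone, compared with 9.69% and 4.03% of all genes. Of these, 3 lie upstream within 71 kb of its start. *Prph*, which encodes the neuronal intermediate filament peripherin, was at 0.356, 0.438 and 0.275 TPM in controls and 4.09, 4.89 and 1.98 TPM in KO clones (1.72, SE 0.31, limma adjusted p = 0.372). *C1ql4*, a secreted C1q-related protein, had 0, 0 and 7 reads in controls and 17, 32 and 10 reads in KO clones (1.44, limma adjusted p = 0.568). *Dnajc22*, the nearest tested gene on that side at 21.2 kb, was at 30.8, 43.2 and 24.6 TPM in controls and 89.0, 82.0 and 47.2 TPM in KO clones (1.11, SE 0.30, limma adjusted p = 0.568).

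Without control clone 3 the fold changes were 1.68 for *Prph*, 1.77 for *C1ql4* and 0.92 for *Dnajc22*. With clone quality weights *Dnajc22* was at 0.52, *Prph* at 1.28 and *C1ql4* at 1.33, and with voom *Prph* was at 3.20 and *C1ql4* at 3.99. In *Prph*, *C1ql4* and *Dnajc22* KO clone 3 was the lowest KO clone, whereas in *Spats2* it was the highest. *Troap*, which lies between *Prph* and *C1ql4* and was named after its values were seen, was at 31.0, 28.9 and 31.8 TPM in controls and 30.9, 34.1 and 31.7 TPM in KO clones, with overlap. On the other side the nearest tested gene, *Mcrs1* at 29.6 kb, had a fold change of -0.06 with overlap (limma adjusted p = 0.911). The other 3 of the 6 were *4930578M01Rik* (0.75, limma adjusted p = 0.464), *Gm17241* (0.65, limma adjusted p = 0.568) and *Fmnl3* (0.23, limma adjusted p = 0.718), the last pair named after their values were seen.

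Around *Lrch2*, 1 of 18 annotated genes was tested, the small nucleolar RNA gene *Gm25107*, named after its values were seen. It lies within *Lrch2* on the same strand without touching an annotated exon, and had 3, 1 and 0 reads in controls and 0 in every KO clone, at or under the floor of 3 reads, so no fold is given. Around *Lbh*, 4 of 9 were tested. The receptor tyrosine kinase gene *Alk*, 314 kb away and named after its values were seen, was at 1.58, 0.642 and 0.581 TPM in controls and 3.07, 2.23 and 2.43 TPM in KO clones, the opposite direction to *Lbh* (0.92, limma adjusted p = 0.568). The nearest tested genes *Ypel5* and *Lclat1* overlapped between groups (0.19 and 0.18, limma adjusted p = 0.811 and 0.858). Around *Gpr155*, 9 of 26 were tested. *D230022J07Rik*, which starts 0.398 kb from the start of *Gpr155* on the opposite strand, was at 2.14, 1.73 and 2.47 TPM in controls and 2.19, 2.27 and 2.12 TPM in KO clones (0.04, limma adjusted p = 0.967). *Scrn3*, 3.69 kb beyond the other end, was at 38.1, 37.9 and 23.1 TPM in controls and 35.1, 31.6 and 35.0 TPM in KO clones (0.07, limma adjusted p = 0.947). *Cir1* (0.25, limma adjusted p = 0.627), named after its values were seen, was higher and *Sp3os* (-0.31, limma adjusted p = 0.610) lower in every KO clone.

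**Figure D5:**
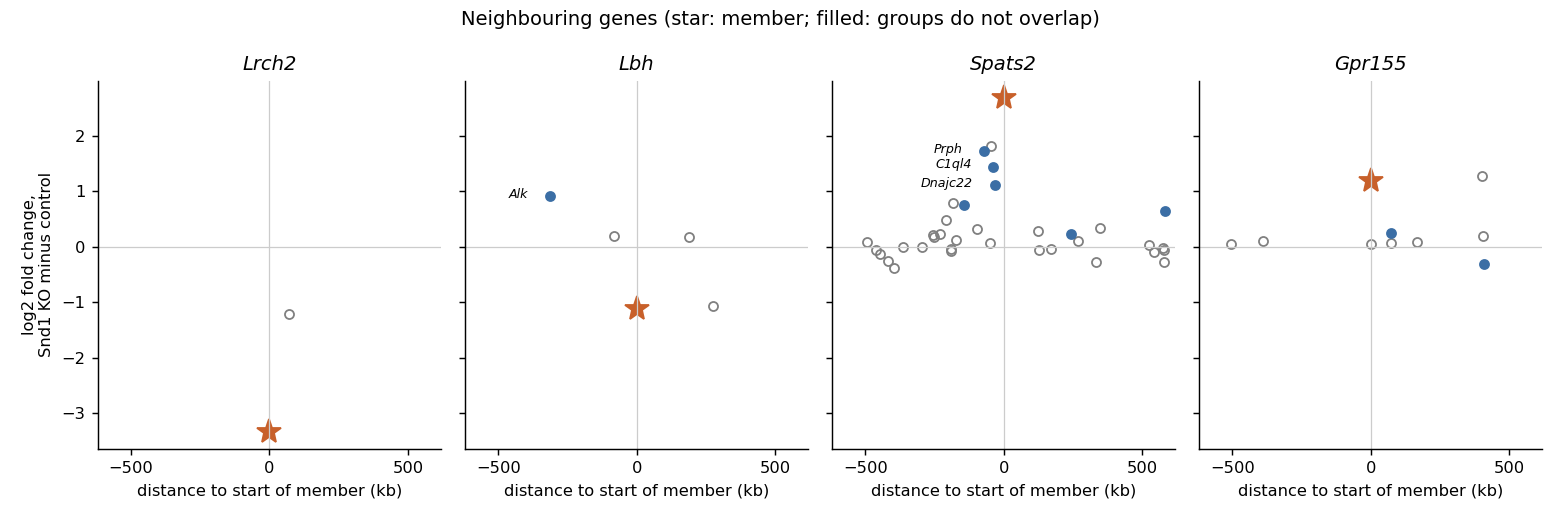
Log2 fold change on the log2(TPM + 1) scale, *Snd1* KO minus control (y axis), of tested genes within 500 kb of each of the 4 genes, by the distance between starts along the strand of the member (x axis, kb), with filled points where groups do not overlap and a star for the gene itself. Filled points above 1 occur only beside *Spats2*, where *Prph*, *C1ql4* and *Dnajc22* lie.

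The genes whose levels ran most nearly in parallel over the 6 clones were found by Pearson's r of log2(TPM + 1) among 11367 genes averaging 5 TPM or more. These r values are descriptions, since the clones form 2 groups and any gene that separates them scores high. Closest to *Lrch2* were *Fxyd7* (r = 0.991), *Pigs* (0.986) and *Cpq* (0.986). *Fxyd7*, which encodes a regulator of the Na,K-ATPase, was at 11.7, 12.6 and 6.62 TPM in controls and 1.77, 1.38 and 2.29 TPM in KO clones, so control clone 3 was the low control here too. Closest to *Lbh* were *Wsb2* (0.989), *Crp* (0.989) and *Slc35d2* (0.986). *Crp*, which encodes C-reactive protein, was at 114, 69.3 and 52.4 TPM in controls and 3.73, 5.83 and 10.5 TPM in KO clones. Closest to *Spats2* were *Kif16b* (0.995), *Gm22303* (0.989) and *Pan3* (0.987), and the endosomal kinesin gene *Kif16b* was at 10.2, 11.5 and 10.9 TPM in controls and 13.6, 15.5 and 14.8 TPM in KO clones. Closest to *Gpr155* were *Ebna1bp2* (0.993), *4930578M01Rik* (0.992) and *Gm43667* (0.992), and *Ebna1bp2*, with a role in ribosome assembly, was at 48.7, 46.4 and 49.6 TPM in controls and 56.3, 60.2 and 58.5 TPM in KO clones. An r of at least 0.95 was reached by 38 genes for *Lrch2*, 33 for *Lbh*, 47 for *Spats2* and 60 for *Gpr155*. *4930578M01Rik*, whose levels ran with *Gpr155* on chromosome 2, lies 129 kb from *Spats2* on chromosome 15.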

How the data were processed

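The authors made cDNA libraries from RNA of 3 control and 3 *Snd1* KO clones, sequenced them from both ends, ran the Genialis platform on the reads and deposited 1 TPM value per gene and clone. The submitters' processing notes name mm10, FastQC, Trimmomatic, HISAT2, HTSeq and DESeq2 without their roles. The annotation was not given in the sources used here. Reads were recovered from deposited TPM multiplied by the summed exon length of GENCODE M21, which matched 53706 of 53808 genes. Where the reads were not whole within 0.01 in all clones, the nearest length within 5% that made them whole was used. This search covered genes with at least 100 reads in a clone, among them *Lbh*. Both steps together gave whole reads for 94.7% of 17823 tested genes. Depth gives counting error only. The 92 ERCC controls were left out.

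Log2(TPM + 1) was compared with limma 3.58.1 (lmFit, eBayes with trend) in R 4.3.3 where the mean reached 0.5 TPM, with Benjamini-Hochberg adjustment. The fit was tested on simulated data. Python 3.11.15 with numpy 2.4.6, pandas 2.3.3, scipy 1.17.1 and matplotlib 3.10.9 served for all else. Promoters are from RefSeq. The 4 genes and the gene lists were chosen with earlier results of these data known. Named are the 4 genes, tested paralogues and nearest neighbours, up to 3 non-overlapping genes per direction in each list with the largest fold change, the 3 genes most alike to each, and markers. Alternatives were a pseudocount of 0.1, no filter, a minimum mean of 5 TPM, quantile normalization, median ratio scaling, clone quality weights, a replicate block, each clone left out, and voom on 16873 genes with recovered reads.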

Additional observations from a re-analysis of the deposited data

How the results depend on the processing

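Under the 14 alternatives *Lrch2* and *Lbh* stayed lower and *Spats2* and *Gpr155* higher in *Snd1* KO clones. The log2 fold change of *Lrch2* was -6.19 with a pseudocount of 0.1 and -8.94 with voom on recovered reads, and that of *Spats2* was 3.55 and 3.69, both being scales that compress low values less. Leaving out 1 clone gave -3.74 to -3.12 for *Lrch2*, -1.20 to -1.05 for *Lbh*, 2.49 to 2.99 for *Spats2* and 1.11 to 1.28 for *Gpr155*.

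The count of genes called over all genes, 1 in the comparison as reported, was 0 without a filter, 0 with the replicate block and 0 with voom, and 0 to 2 with a clone left out, the 2 being without *Snd1* KO clone 2. With clone quality weights it was 895 (5.02% of 17823), of which 525 were higher and 370 lower, with weights from 0.279 for control clone 3 to 3.91 for KO clone 3. The same weights called 3 of 26 DOCK, ELMO, small GTPase and effector genes (11.5%), 2 of 46 Wnt genes (4.35%) and 4 of 49 neighbours (8.16%), each 0 as reported. They included *Cdc42ep3*, *Rspo3*, *Prph* and *C1ql4*. The cause was not tested.

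The sign turned for genes near 0. *Lrch3* was at -0.0063 with quantile normalization, -0.0091 with median ratio scaling, -0.045 with clone quality weights, and -0.085 without control clone 3 to 0.12 without KO clone 2 over the clones left out, with -0.035 without KO clone 1. *Lclat1* ranged from -0.089 without KO clone 1 to 0.40 without KO clone 2. *Mcrs1* was at 0.0037 with weights and -0.12 to 0.017 with a clone left out, highest without control clone 3. *Scrn3* was at -0.092 with weights and -0.16 to 0.19 with a clone left out, lowest without control clone 3. *D230022J07Rik* was at -0.13 with quantile normalization and -0.048 to 0.13 with a clone left out, lowest without control clone 2. The cause was not tested.

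The replicate numbers did not pair the clones, as the deviations of same-numbered clones correlated at 0.0507, -0.122 and -0.0736, and 1 of 6 clones correlated best with its own number. With 3 clones per group and 1 parental line, the p-values rest only on the variation between these clones. The smallest exact permutation p for a single gene would be 0.1.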
